A study of Mus musculus with 29 samples.

Results

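Tubular injury and repair genes are genes that the epithelium of the kidney tubule is known to switch on after damage. A set of 10 of them was followed through a table of 13982 genes: Spp1, Havcr1, Lcn2, Clu, Timp1, Vcam1, Cd44, Krt8, Krt18 and Krt19. They were chosen by name, and all 10 are rows of the table. The table holds 14 libraries of poly(A) RNA from (NZBxNZW)F1 mice (NZB/W), a cross that develops a lupus-like disease with anti-dsDNA antibodies and nephritis. No treatment or engineered allele is labelled, and every group shares the strain. The proteinuric mice gave 4 kidney libraries (mice H6, H20, H115 and H117, aged 39, 36, 25 and 32 weeks), 3 libraries of tertiary lymphoid structures (TLS, mice H6, H20 and H115) and 3 lymph node libraries (mice H6, H20 and H117). TLS are lymphoid aggregates that form outside lymphoid organs, and here they were cut from the kidney by hand under a loupe, so that TLS and kidney with the same mouse number came from one animal. A further 3 lymph node libraries came from antibody-positive mice (mice D10, D11 and L25, aged 28, 29 and 18 weeks) and 1 from a mouse labelled young (4 weeks). These 14 libraries held no kidney of a mouse without proteinuria, and the whole kidneys of the other disease stages were not analysed here, so the kidney levels have no healthy kidney beside them.

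After injury, tubule cells are known to lose part of their transport program and to take up an embryonic, repair-prone state. They release osteopontin (Spp1), lipocalin 2 (Lcn2), clusterin (Clu) and the metalloproteinase inhibitor TIMP-1 (Timp1), and they display kidney injury molecule 1 (Havcr1), an apical receptor for dying cells. VCAM-1 (Vcam1), an adhesion molecule that holds leukocytes, and CD44 (Cd44), a receptor for hyaluronan and osteopontin, are associated with tubules that fail to recover. Keratins 8, 18 and 19 (Krt8, Krt18, Krt19) build the intermediate filaments of simple epithelia and rise in stressed tubules. Several members have other sources: Spp1 is made by macrophages, Lcn2 by neutrophils, Clu and Vcam1 by stromal cells of lymphoid follicles, Havcr1 (as TIM-1) by lymphocytes, Cd44 by most leukocytes, and Krt19 by urothelium.

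The values below are (reads + 1) divided by the size factor of the library, so a gene without a read has a value between 0.809 and 1.77, depending on the library. The libraries held between 343825 and 443379 reads, and 3 reads, taken as the floor, were worth between 2.36 and 5.32. Ribosomal RNA genes took 55.6% of the reads of kidney H117, 31.8% of lymph node H6 and 21.3% of TLS H115, and at most 5.33% elsewhere. The tissues carried their labelled markers. The summed level (reads over size factor) of 11 proximal tubule genes ran from 6978 to 19006 in kidney, from 1091 to 7320 in TLS and from 0 to 1.89 in the proteinuric lymph nodes, and that of 6 B-cell genes from 0 to 23.6, from 327 to 473 and from 593 to 895, respectively. The TLS libraries thus held RNA of tubules as well as of lymphocytes. In bulk tissue, fewer cells of a type and less RNA per cell cannot be told apart, which holds for each level below.

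Positions follow the GENCODE M21 annotation of GRCm38. Krt8 (chromosome 15, 101996698 to 102004482, minus strand) and Krt18 (chromosome 15, 102028180 to 102032027, plus strand) are neighbours that are transcribed away from each other, and their proteins are filament partners. Krt19 lies on chromosome 11 (100140810 to 100148665, minus strand), as does Havcr1 (46735080 to 46779578, plus strand). Lcn2 (32384633 to 32388252) and Cd44 (102811141 to 102901665) are on the minus strand of chromosome 2, and Vcam1 (116109949 to 116129688) on that of chromosome 3. Spp1 (chromosome 5, 104435118 to 104441050), Clu (chromosome 14, 65968483 to 65981547) and Timp1 (chromosome X, 20870166 to 20874735) are on the plus strand. The RefSeq promoter table for GRCm38.p6 held 7 of the 10 members. The stretches shown are up to 250 bases before the RefSeq start of 2 injury genes that moved together between the kidneys, and of the keratin pair, cut where the annotated gene begins. Capitals mark a match to 1 of 4 motifs searched on both strands, a TATA box (TATAAA) in Spp1, an Sp1 site (GGGCGG) in Timp1 and a kappaB site in Krt18; the AP-1 motif (TGANTCA) was the other one, and no matches overlapped.
Spp1, chr5:104434861-104435110, plus strand: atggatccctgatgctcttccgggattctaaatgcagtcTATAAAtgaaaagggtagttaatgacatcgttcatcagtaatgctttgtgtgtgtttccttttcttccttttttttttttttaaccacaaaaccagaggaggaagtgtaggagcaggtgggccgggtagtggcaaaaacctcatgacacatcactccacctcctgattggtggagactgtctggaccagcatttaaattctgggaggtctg
Timp1, chrX:20869916-20870165, plus strand: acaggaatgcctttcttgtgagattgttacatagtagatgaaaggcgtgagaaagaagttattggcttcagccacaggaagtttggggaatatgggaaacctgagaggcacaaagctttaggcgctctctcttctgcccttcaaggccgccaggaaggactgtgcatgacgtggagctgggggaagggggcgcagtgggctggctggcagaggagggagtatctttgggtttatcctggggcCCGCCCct
Krt8, chr15:102004483-102004592, minus strand: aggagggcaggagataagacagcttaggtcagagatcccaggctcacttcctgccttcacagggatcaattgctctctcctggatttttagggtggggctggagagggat
Krt18, chr15:102027966-102028179, plus strand: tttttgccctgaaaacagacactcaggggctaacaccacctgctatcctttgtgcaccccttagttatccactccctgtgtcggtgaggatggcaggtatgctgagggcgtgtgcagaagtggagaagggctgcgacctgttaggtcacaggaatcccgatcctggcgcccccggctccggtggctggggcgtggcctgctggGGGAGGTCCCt

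In the full windows of 250 bases, the TATA box of Spp1 began 211 bases before the start, the Sp1 site of Timp1 8 bases before it and the kappaB site of Krt18 47 bases before it. The Lcn2 window, not shown because it lies wholly inside the annotated gene, held an Sp1 site 94 bases before the start. No window of Havcr1, Cd44 or Krt8 held any of these motifs, and none of the 7 members searched held the AP-1 motif. Clu, Vcam1 and Krt19 had no entry and were not searched. Of the 32851 promoters of the table, 12.4% held a TATA box, 32.7% an Sp1 site, 7.25% a kappaB site and 6.75% an AP-1 site in the same window. A match describes letters only.

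Osteopontin was by far the most abundant member in kidney and TLS. Its value was 11628 in kidney H6, 9144 in kidney H20, 753 in kidney H115 and 318 in kidney H117. In TLS it was 1761 in mouse H6, 3591 in mouse H20 and 662 in mouse H115, and in the 7 lymph node libraries it lay between 0.809 and 4.74 (median 1.45). The kidneys of mice H6 and H20 stood above all TLS libraries, kidney H115 lay between the lowest and the middle one and kidney H117 below all of them, so kidney and TLS overlapped, while no lymph node came near either. The 9 listed macrophage markers summed to between 2267 and 2621 in lymph node of proteinuric mice. Their sum was between 948 and 1704 in TLS and between 158 and 676 in kidney. The cell source of Spp1 was not tested. In kidney H6, 3.79% of all reads were Spp1 reads (95% Wilson interval 3.73% to 3.86%), against 0.0472% in kidney H117 (0.0408% to 0.0547%), and these intervals cover counting error only. Per kilobase of exon, the mean level of Spp1 was 3313 in kidney, with Clu (142) and Havcr1 (101) the next members. In TLS the order per kilobase was Spp1 (1216), Clu (138), Lcn2 (116.6), Krt8 (71.4), Krt18 (60.5) and Krt19 (50.7), and given the spread among 3 libraries, neighbours below Spp1 in this order are not separated.

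Kidney injury molecule 1 was also higher in kidneys H6 and H20 than in the others. The Havcr1 value was 530.5 in kidney H6, 317 in kidney H20, 30.1 in kidney H115 and 37.3 in kidney H117. TLS had 49.2 in mouse H6, 137 in mouse H20 and 27.3 in mouse H115. Each of the 7 lymph node libraries held between 5 and 13 Havcr1 reads, a value between 7.61 and 11.6 with an SD of 1.48. Havcr1 was thus the only one of the 5 secreted or apical injury genes besides Clu with a steady level in lymph node, and its kidney and TLS libraries all lay above it.

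Lipocalin 2 and TIMP-1 were either clearly present or at the floor. The Lcn2 value was 96.4 in kidney H6 and 69.2 in kidney H20, with 1 read in kidney H115 and none in kidney H117. TLS had 202 in mouse H6 and 119 in mouse H20, and 1 read in mouse H115. No Lcn2 read was found in any of the 7 lymph node libraries. Timp1 was 52.2 in kidney H6 and 65.8 in kidney H20, and 18.7 and 24.4 in TLS of these mice, with no read in kidney H115, kidney H117 or TLS H115. Lymph nodes held at most 2 Timp1 reads. For both genes, the libraries of mice H6 and H20 were high in kidney and in TLS, and the library of mouse H115 was low in both tissues. Markers of neutrophils, a known source of Lcn2, were near the floor in kidney and TLS. Of the 3 listed ones, S100a8 and Ltf had no read in any kidney or TLS library, S100a9 reached at most 5.94, and their summed level was between 0 and 2.65 in kidney and between 0 and 5.94 in TLS. Lymph node H6, where that sum was 222, had no Lcn2 read. The cell source of Lcn2 was not tested.

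Clusterin differed between kidneys and little elsewhere. Its value was 499.5 in kidney H6, 408 in kidney H20, 66.1 in kidney H115 and 62.1 in kidney H117. TLS had 374, 179 and 196 in mice H6, H20 and H115. The lymph nodes of proteinuric mice had 197, 308 and 293 in mice H6, H20 and H117, those of antibody-positive mice 478, 374 and 306, and the young one 298. The lymph nodes lay within the range of the kidneys, above kidneys H115 and H117 in every library.

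Vascular cell adhesion molecule 1 was 36.2 in kidney H6, 57.4 in kidney H20, 2.32 in kidney H115 and 1.77 in kidney H117, the last 2 being 1 read and none. TLS had 17.8, 33.8 and 15.3 in mice H6, H20 and H115. The 7 lymph nodes ranged from 18.0 to 35.8 (median 26.7). Vcam1 was therefore present in every TLS and lymph node library, including TLS H115, whose kidney had 1 read. Cd44 had few reads: 3, 9, 0 and 0 in kidneys H6, H20, H115 and H117, then 10, 11 and 3 in TLS of mice H6, H20 and H115, and between 4 and 15 in the lymph nodes. Lymph nodes had the highest Cd44 level, with a mean of 12.3 ± 2.57 (SD, n = 7) against 7.71 ± 2.90 (SD, n = 3) in TLS and 3.73 ± 3.30 (SD, n = 4) in kidney.

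Of the keratins, Krt19 set TLS apart most clearly. Krt8 was 162 in kidney H6, 112 in kidney H20, 75.3 in kidney H115 and 33.7 in kidney H117, against 170.4, 81.7 and 170.1 in TLS of mice H6, H20 and H115. Krt18 was 41.6, 21.9, 10.4 and 1.77 in these kidneys and 112, 27.5 and 124 in these TLS. Krt19 was 7.96, 5.90, 3.48 and 1.77 in kidney and 72.1, 27.5 and 143 in TLS, so that every TLS library had at least 34 Krt19 reads and no kidney more than 8. Krt8 overlapped between the tissues, Krt18 overlapped only through TLS H20, and Krt19 did not overlap. No read of any of these keratins was found in the 7 lymph node libraries.

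**Figure D1:**
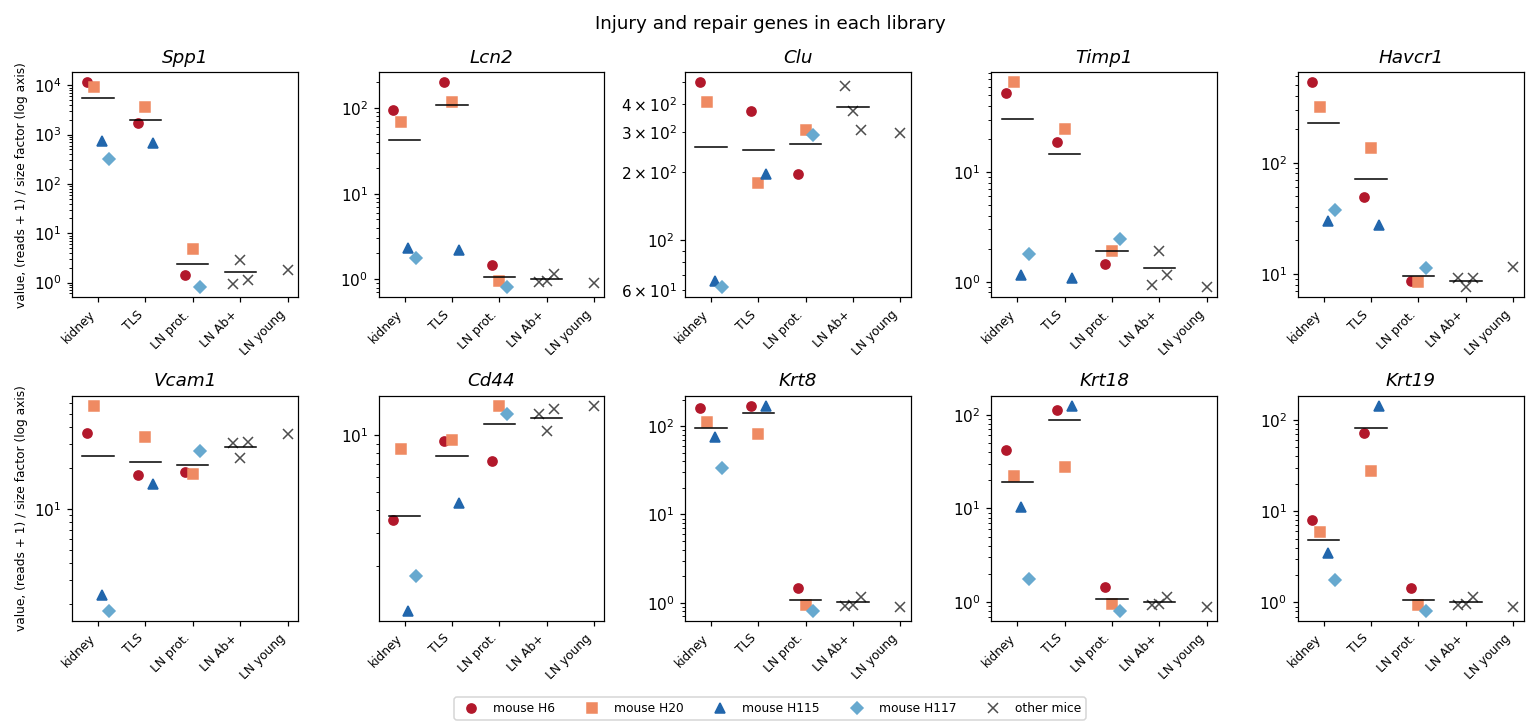
Value of each of the 10 genes, (reads + 1) over the size factor on a log axis, in kidney (4 libraries), TLS (3), and lymph node of proteinuric (3), antibody-positive (3) and young (1) mice; horizontal lines are group means and symbols mark the mouse. Mice H6 and H20 stand above mice H115 and H117 in kidney for each gene, Krt19 is higher in every TLS than in every kidney, and Spp1, Lcn2, Timp1 and the keratins are near the level of no read (about 1) in lymph node.

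Kidneys of the same disease stage differed widely from each other. The SD of log2(value + 1) over the 4 kidneys was 2.76 for Lcn2, 2.67 for Timp1, 2.59 for Spp1, 2.29 for Vcam1, 2.09 for Havcr1, 1.69 for Krt18 and 1.62 for Clu. For Krt8 it was 0.956, for Cd44 0.937 and for Krt19 0.741. The median SD over all 7382 genes tested was 0.464, and among genes with a mean value between 0.5 and 2 times that of the member it was between 0.443 (Krt18) and 0.805 (Spp1), below the member's SD for each of the 10. The highest kidney value was 36.6 times the lowest for Spp1 and 17.6 times for Havcr1. In TLS the median SD was 0.467, and the SDs were 3.26 for Lcn2, 1.98 for Timp1, 1.22 for Spp1, 1.19 for Krt18, 1.17 for Krt19 and 1.16 for Havcr1. Those of Cd44 (0.550), Clu (0.576), Vcam1 (0.582) and Krt8 (0.606) were closer to the median. Clu and Vcam1 thus varied widely between kidneys and less between TLS. Among genes of similar level in TLS, the median SD was 1.29 for Spp1 and 0.582 for Clu, above the SDs of these members. For each other member it was below the member's SD, between 0.440 (Timp1) and 0.578 (Krt8).

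The same 2 kidneys were the higher ones for all 10 genes, though their order within each pair varied. After the values were seen, the kidneys were ordered by the labelled ages, mice H20 and H6 (36 and 39 weeks) being the 2 older and mice H115 and H117 (25 and 32 weeks) the 2 younger. For 10 of the 10 members, both older kidneys had higher values than both younger ones. Among all 7382 genes tested, 32.5% showed that split and 21.5% the opposite one. A gene without a kidney read, such as S100a8, is counted with the opposite split. Its value is then 0.884 and 0.843 in kidneys H6 and H20, against 1.16 and 1.77 in kidneys H115 and H117. Both shares thus include genes not detected in kidney. Of 33 tested genes of a list of further injury response genes, 29 showed the split of the members and 1, Itgb6, the opposite; this list, like the members, was chosen with earlier results of these data known. In TLS, the library of mouse H115, the youngest, was the lowest of 3 for 6 of 10 members (Spp1, Havcr1, Lcn2, Timp1, Vcam1 and Cd44), against 34.6% of all genes. A gene without a TLS read has its highest value in TLS H115, so no such gene is among that share. No test was made, since 4 kidneys of 4 ages leave age and animal inseparable, and the few reads of Cd44 and Krt19 make their order uncertain.

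Other genes moved with that split. The 7 fibroblast markers showed it in 7 of 7 cases, and their summed level was 158 in kidney H6, 191 in kidney H20, 18.5 in kidney H115 and 10.6 in kidney H117, with decorin (Dcn) and collagen III (Col3a1) the most abundant. The 4 tested endothelial markers had it too, as did 5 of 7 macrophage markers, whose sum was 418, 676, 253 and 158. Many markers of the proximal tubule and thick limb went the other way. Of these, 6 of 11 proximal tubule genes and 4 of 4 thick limb genes were lower in both older kidneys and none higher in both. So were 3 of 3 distal convoluted tubule genes, but only 1 of 5 tested collecting duct genes. Of 6 general epithelial markers, 2 showed the split of the members and 0 the opposite. The proximal tubule sum was 6978, 9379, 19006 and 16899 in mice H6, H20, H115 and H117. Kidney H117 had 167440 reads outside ribosomal RNA and kidney H115 had 347139, close to the 340874 and 353529 of mice H6 and H20. Kidneys H117 and H115 also had the larger ribosomal share (55.6% and 5.13%, against 1.64% and 2.73%) and fewer genes with a read (7585 and 9542, against 10856 and 11075). The part of these differences in the split was not tested. That each member was lower in kidney H115 than in kidneys H6 and H20 is part of the split itself. It is therefore no check on the part of kidney H117.

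**Figure D2:**
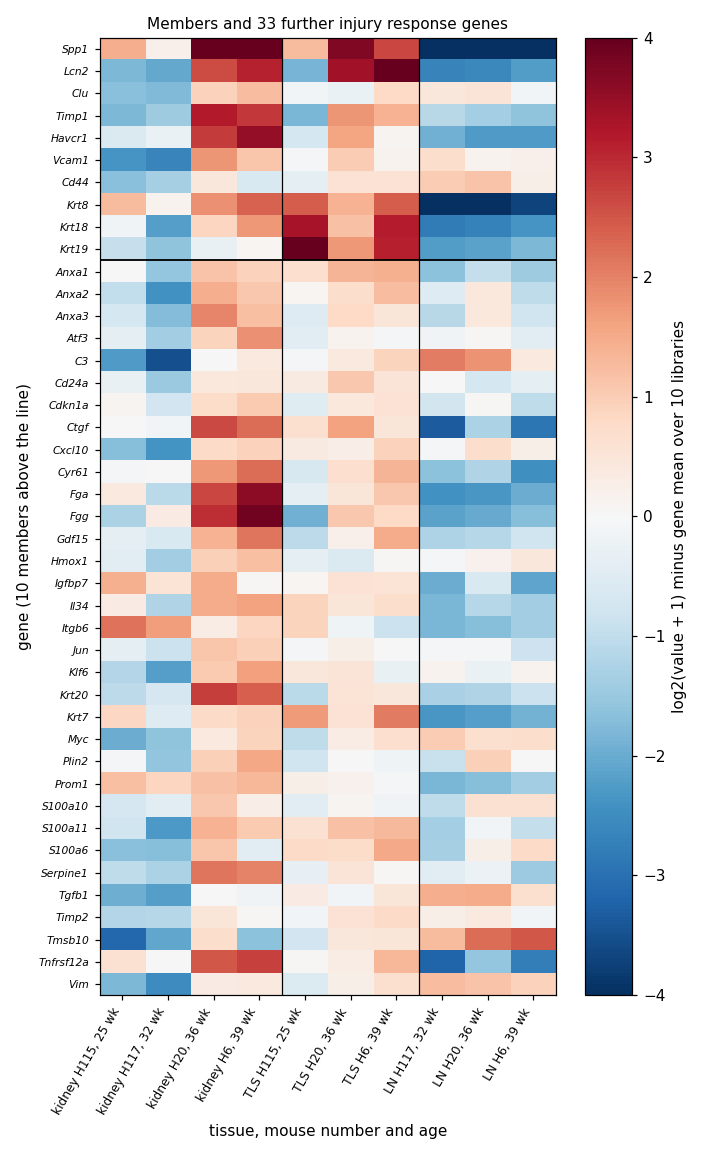
Difference of log2(value + 1) from the mean of each gene over the 10 proteinuric libraries, for the 10 members (above the line) and the 33 tested genes of the injury response list; columns are tissues with mouse number and age, ordered by age within tissue, and colours end at -4 and 4. The kidneys of mice H20 and H6 are mostly red and those of mice H115 and H117 mostly blue, while the 3 lymph nodes are blue for Spp1, Lcn2, Havcr1 and the keratins.

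Whether kidney tissue and TLS differ was tested with limma, fitted to log2(value + 1) of the 10 proteinuric libraries together, with Benjamini-Hochberg adjustment over all 7382 genes. Krt19 was lower in kidney than in TLS by a log2 fold change of -3.67 (SE 0.52, adjusted p = 0.000651), from mean values of 4.78 ± 2.71 (SD, n = 4) and 80.8 ± 58.2 (SD, n = 3). All 10 members reached the mean value of 5 over the 10 libraries that testing required. Krt19 did so through TLS alone, Spp1, Lcn2, Timp1, Krt8 and Krt18 through kidney and TLS, and Cd44 through TLS and lymph node. A difference from the tissue that lacks them, or that has less of Cd44, was thus partly built in. Without that filter Krt19 had an adjusted p of 0.00059. Krt19 was the only member called, 1 of 10, where 14.7% of all genes were called and 8.62% were called with the higher level in TLS. Krt18 had a log2 fold change of -2.48 (SE 0.82, adjusted p = 0.0695) and Cd44 one of -1.06 (SE 0.49, adjusted p = 0.170). Krt18 was called without kidney H6 (adjusted p = 0.0247) or without TLS H20 (0.0378), and Cd44 without kidney H20 (0.0360). The other 7 members had adjusted p values of 0.391 or more, with SEs between 0.48 and 1.77. The log2 fold change was 0.48 for Spp1, 1.04 for Havcr1, 0.25 for Timp1, -1.43 for Lcn2, -0.47 for Clu, -0.89 for Vcam1 and -0.68 for Krt8. Those of Spp1, Timp1, Clu and Vcam1 turned sign under other settings, so no direction is given for them. With a library left out, Lcn2 ran from -3.30 to -0.30 and Havcr1 from 0.32 to 1.68. The same mouse numbers allowed a paired fit with the mouse as a replicate block, in which Krt19 was again the 1 member called (log2 fold change -3.45, adjusted p = 0.000889).

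**Figure D3:**
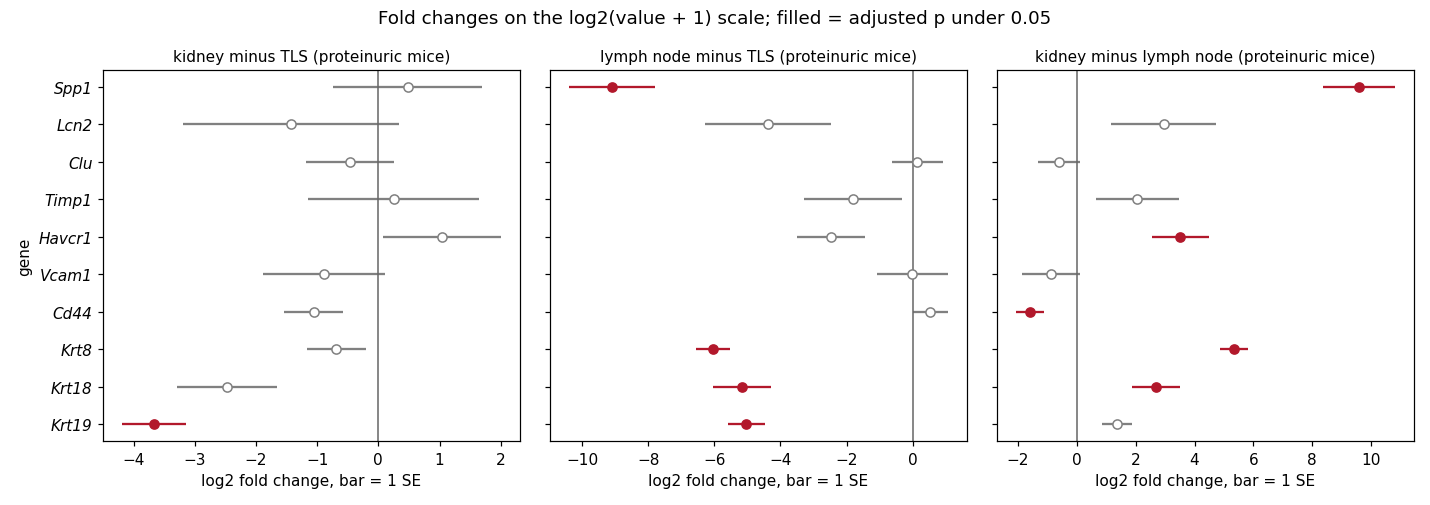
Log2 fold change of each gene on the log2(value + 1) scale in the 3 comparisons of tissues of proteinuric mice (positive is higher in the first tissue named), with bars of 1 SE; filled points have an adjusted p under 0.05. Krt19 alone is filled for kidney minus TLS, and Spp1 and Krt8 lie far from 0 in both comparisons with lymph node.

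Within the 3 mice that gave both tissues, the members fell into kinds. The difference log2(TLS value + 1) minus log2(kidney value + 1) was positive in each mouse for Krt19 (3.03, 2.05 and 5.01 in mice H6, H20 and H115), Krt18 (1.41, 0.31 and 3.45) and Cd44 (1.19, 0.14 and 1.31). It was negative in each mouse for Spp1 (-2.72, -1.35 and -0.19) and Havcr1 (-3.40, -1.21 and -0.14). In mouse H115, Havcr1 had 25 reads in kidney and 24 in TLS, so its sign there is uncertain. Timp1 was negative in mice H6 and H20 (-1.44 and -1.40) and had no read in either tissue of mouse H115. The Havcr1 value of TLS was 9.27% of that of the kidney in mouse H6, 43.1% in mouse H20 and 90.5% in mouse H115. The summed proximal tubule level of TLS was 15.6%, 43.8% and 38.5% of that of the kidney in these mice. Lcn2 was higher in TLS in mice H6 and H20 (1.06 and 0.77) and had 1 read in either tissue of mouse H115. Clu and Vcam1 were lower in TLS in mice H6 and H20 and higher in mouse H115, by 1.56 for Clu and 2.29 for Vcam1. The median over all genes tested was between -0.10 and -0.06 in these mice. With 3 mice, these are values without a test.

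**Figure D4:**
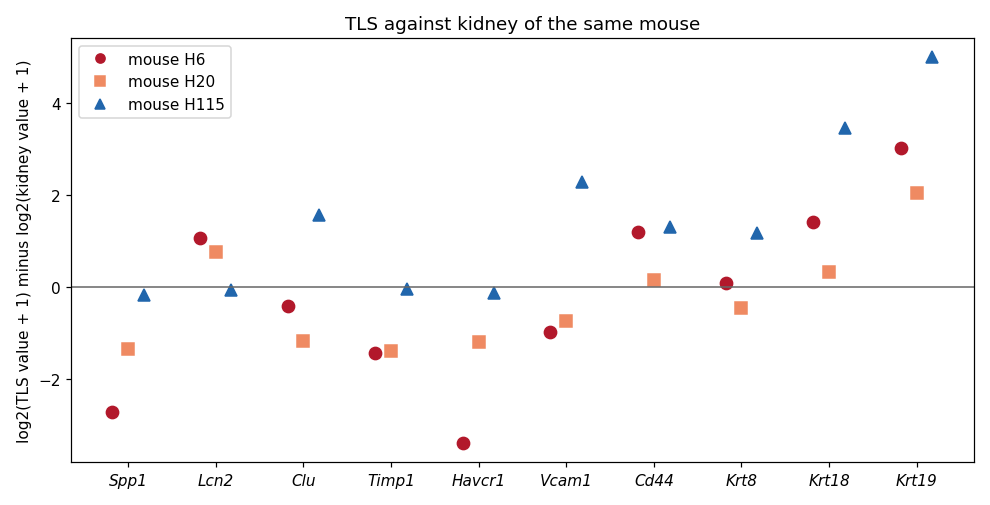
Difference of log2(value + 1) between TLS and kidney of the same mouse (positive is higher in TLS) for each gene in mice H6, H20 and H115. Krt19, Krt18 and Cd44 are above 0 in all 3 mice, Spp1 and Havcr1 below 0, and the others but Timp1 on both sides. Timp1 is below 0 in mice H6 and H20 and had no read in either tissue of mouse H115.

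The Krt19 difference was examined against its filament partner, because a ratio within a library does not depend on the scaling; this was chosen after the values were seen. Of the reads of Krt8 and Krt19 together, Krt19 took 4.21% in kidney H6 (8 of 190), 4.35% in kidney H20 (6 of 138), 3.03% in kidney H115 (2 of 66) and none of 18 in kidney H117, where 3 reads would be 16.7%. In TLS it took 29.6% in mouse H6, 24.8% in mouse H20 and 45.6% in mouse H115. The mean share was 2.90% ± 2.02 (SD, n = 4) in kidney and 33.3% ± 10.9 (SD, n = 3) in TLS, without overlap. An exact permutation test of these shares gave p = 0.0571, the smallest value possible with 4 and 3 libraries. Since the ratio was chosen on these values, no conclusion is drawn from that p. Krt18 took 11.8% ± 8.70 (SD, n = 4) of the Krt8 and Krt18 reads in kidney and 35.5% ± 9.36 (SD, n = 3) in TLS, also without overlap. The same permutation test gave the same p of 0.0571 for Krt18, with the same limit.

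Markers of urothelium, the lining of the renal pelvis, moved with Krt19. The summed level of the 6 listed markers was 412, 133 and 746 in TLS of mice H6, H20 and H115, in the order of Krt19, and between 0 and 22.0 in kidney. Of these, 5 reached the mean value for testing, 3 of them through TLS alone, so their calls are not counted here. Uroplakin 3a (Upk3a) and Psca were the most abundant, with mean levels of 153 and 134 in TLS and of 3.90 and 6.33 in kidney. Keratins of basal and stratified epithelia had their high values in TLS, and reached the mean value for testing through it. Krt5 was 80.6, 20.4 and 157 in TLS of mice H6, H20 and H115 and at most 5.30 in kidney, Krt14 was 44.9, 8.65 and 79.6 and at most 1.77, Krt15 was 58.5, 14.1 and 142 and at most 4.42, and Krt17 was 31.4, 3.14 and 42.5 and at most 1.77. Krt7, a keratin of simple and urothelial epithelium, had values of 15.9, 14.3, 15.1 and 5.33 in kidneys H6, H20, H115 and H117, and 37.3, 12.6 and 28.3 in TLS of mice H6, H20 and H115. The part of urothelium in the Krt19 and Krt18 levels of TLS was not tested.

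**Figure D5:**
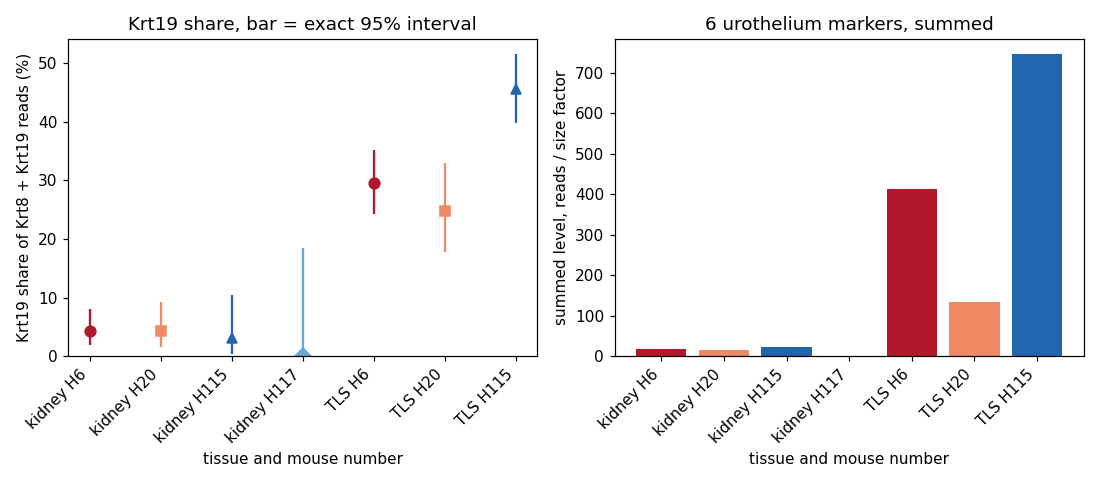
Left, share of Krt19 among the reads of Krt8 and Krt19 in each kidney and TLS library, with exact 95% binomial intervals (counting error only); right, summed level (reads over size factor) of 6 urothelium markers in the same libraries. The kidneys have at most 4.35% Krt19 and a marker sum of at most 22.0, the TLS at least 24.8% and at least 133.

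Lymph node served as the lymphoid tissue without tubules. Between lymph node and TLS of proteinuric mice, 4 of 10 members were called and all 4 were higher in TLS, where 10.6% of all genes were called and 8.87% with the higher level in TLS. These 4, Spp1, Krt8, Krt18 and Krt19, passed the filter on mean value through the other tissues and not through lymph node. Their direction was thus partly built in. Spp1 had a log2 fold change of -9.10 (SE 1.30, adjusted p = 0.00124). Against lymph nodes without a read, the mean TLS level was at least 32.2-fold higher for Krt8 (adjusted p = 1.53e-05), at least 20.0-fold for Krt18 (0.00305) and at least 18.4-fold for Krt19 (9.22e-05), taking 3 reads in the shallowest lymph node library as the floor. Lcn2 was at least 24.5-fold higher on average but was at 1 read in TLS H115, and it was not called (adjusted p = 0.218) except with the mouse as a replicate block (0.0208), with DESeq2 (0.00841) or with all 7 lymph nodes (0.0301). Havcr1 had a log2 fold change of -2.47 (SE 1.03, adjusted p = 0.182). It was called with DESeq2 (0.0248), with all 7 lymph nodes (0.0315) and with only these tissues in the fit (0.0172). Cd44, Clu and Vcam1 had log2 fold changes of 0.53, 0.14 and -0.01 with adjusted p values of 0.597 or more, and Timp1 one of -1.81 (adjusted p = 0.531). The median log2 fold change of the members was -3.42, or -3.34 with the 4 genes that lymph node lacked at their bound, beside 0.04 for all genes.

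Between kidney and lymph node, 5 of 10 members were called, where 43.8% of all genes were called, 23.0% with the higher level in kidney and 20.8% in lymph node. Higher in kidney were Spp1 (log2 fold change 9.58, SE 1.21, adjusted p = 0.00011), Havcr1 (3.51, SE 0.97, adjusted p = 0.0130), Krt8 (at least 21.8-fold, adjusted p = 3.28e-06) and Krt18 (at least 4.08-fold, adjusted p = 0.0209). Cd44 was lower in kidney by a log2 fold change of -1.59 (SE 0.49, adjusted p = 0.0184). The share called was thus close to that of all genes. For Spp1, Krt8 and Krt18 the direction was again partly built in by the filter. The same holds for Cd44, whose mean value was 3.73 in kidney and 11.5 in lymph node. Krt19, with at most 8 reads in a kidney, was just outside (adjusted p = 0.0506), and was called without kidney H117 (0.0237), without TLS H20 (0.0243) or TLS H115 (0.0265), and under edgeR and DESeq2. Lcn2 (adjusted p = 0.215) and Timp1 (0.267) were not called beside kidneys at both extremes, but were called with the mouse as a replicate block (0.00913 and 0.0275). Their log2 fold changes were 2.95 and 2.06 in the main fit and 3.90 and 2.82 with the block. The reason for the changed calls was not tested. The calls of Cd44 and Krt18 were lost without lymph node H20 (0.0742 and 0.0601) or lymph node H117 (0.0690 and 0.0640), that of Cd44 also without kidney H115 (0.0513) and under edgeR (0.0577 and 0.0716) and DESeq2 (0.0715), and that of Krt18 also without kidney H20 (0.0521) and with a pseudocount of 5 (0.0559). Clu and Vcam1 had adjusted p values of 0.523 and 0.512.

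Lymph nodes of antibody-positive and proteinuric mice were compared in a fit of their own with 6810 genes. RNA of the antibody-positive nodes was isolated with another kit (miRNeasy against TRIzol), so disease stage and kit cannot be told apart. Only Clu, Havcr1, Vcam1 and Cd44 had a mean value of at least 5 there, and 0 of these 4 were called, as were 0% of all genes. By limma 215 genes had an unadjusted p under 0.05, none of the 4 among them, and DESeq2 called 13 genes and edgeR none. The mean Clu value was 386 in antibody-positive and 266 in proteinuric nodes (log2 fold change 0.54, SE 0.40), that of Vcam1 28.4 and 21.2 (0.42, SE 0.29), that of Cd44 12.4 and 11.5 (0.15, SE 0.32) and that of Havcr1 8.69 and 9.52 (-0.11, SE 0.27). The young node had 298 for Clu, 35.8 for Vcam1, 14.3 for Cd44 and 11.6 for Havcr1. At 3 libraries a side, the SEs leave room for moderate differences.

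The wider injury response list held 40 genes in the table, of which 33 were tested. Between kidney and TLS, 1 was called, Prom1, a progenitor and tubule surface protein, higher in kidney (log2 fold change 1.03, adjusted p = 0.0271), where 14.7% of all genes were called. Between lymph node and TLS, 7 were called and all were higher in TLS, beside 10.6% of all genes called and 8.87% in that direction, led by Krt7 (-3.60), the matricellular gene Ctgf (-3.40) and the TWEAK receptor Tnfrsf12a (-3.08). Between kidney and lymph node, 11 were higher in kidney, led by Tnfrsf12a (3.97), Ctgf (3.70) and the fibrinogen chain Fga (3.62), and 4 were higher in lymph node, led by Tmsb10 (-3.54), complement C3 (-2.76) and Tgfb1 (-2.27), which leukocytes and stromal cells also make. These 15 of 33 stand beside 43.8% of all genes called. Among list genes called lower in lymph node, only Anxa1 (mean 6.39) and Igfbp7 (227) reached the mean value for testing in that tissue. The others, such as Krt7 (1.07), Tnfrsf12a (2.33) and Ctgf (2.96), passed the filter through the other tissues. Their direction against lymph node was thus partly built in. The list's median log2 fold change was 0.12, -1.0 and 0.66 in these comparisons, beside 0.01, 0.04 and -0.05 for all genes. Some of its genes with the kidney split of the members were named after their values were seen: Fga was 114.9, 60.7, 11.6 and 3.55 in kidneys H6, H20, H115 and H117, Fgg was 114.9, 60.7, 2.32 and 8.87, and Krt20 was 22.1, 29.5, 1.16 and 1.77.

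Receptors and partners of the members are described by the calls of the same limma fit. The shares of all genes called were those given above for each comparison, 23.0% for higher in kidney than in lymph node. Of 5 tested osteopontin receptor chains, 3 integrins were called higher in kidney than in lymph node, Itgb6 (log2 fold change 2.89), Itgav (2.02) and Itgb5 (1.75), and none was called in the other comparisons. Of the tested VCAM-1 partners, the leukocyte integrin chain Itgb7 was lower in kidney than in TLS (-2.53) and than in lymph node (-4.21), and Icam1 lower in kidney than in lymph node (-1.38). Among the enzymes and inhibitors around TIMP-1, the inhibitor Timp3 was higher in kidney than in TLS (1.71) and than in lymph node (5.29), and the TIMP-1 receptor Cd63 higher in kidney (2.69) and in TLS (lymph node against TLS, -1.52) than in lymph node. The sheddase Adam17 was lower in kidney than in lymph node (-1.32). Megalin (Lrp2), which takes up lipocalin 2 and clusterin, was higher than in lymph node in TLS (-3.86 for lymph node against TLS) and in kidney (5.97), and was highest in kidney H115 (468, against 74.3, 55.7 and 137 in kidneys H6, H20 and H117). Of the relatives of Havcr1, Timd4, a receptor of macrophages for dying cells, was higher in lymph node than in TLS (3.55) and in kidney (-4.21 for kidney against lymph node), whereas Timd2 was higher in kidney than in lymph node (2.51). Of the CD44 partners, the linker Rdx was higher in kidney than in lymph node (0.94). Itgb6 and Lrp2 had no read in the lymph nodes of proteinuric mice, so their direction against lymph node was partly built in by the filter. Of the 3 listed relatives of Havcr1, 2 had no read in each kidney library, and at least 1 had none in each of these lymph nodes. The directions of Timd4 and Timd2 can thus be partly built in too. Other partner calls can carry the same limit where a tissue had few reads.

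Likeness of pattern was described by Pearson's r of log2(value + 1) over the 14 libraries, among the 7399 genes whose mean value reached 5; the libraries share their tissue, so differences between tissues enter each r. The genes most like Spp1 were Plat (r = 0.986), Cx3cl1 (0.984) and Col18a1 (0.981), those most like Havcr1 were Serpine2 (0.971), Gadd45a (0.966) and Fgg (0.964), and those most like Clu were Smyd5, Csrp1 and Ifngr2 (0.924 to 0.928). Lcn2 was closest to Ankrd1 (0.992), Smoc2 (0.950) and Loxl2 (0.944), and Timp1 to Loxl2 (0.971), Krt20 (0.959) and Ccl28 (0.937). Vcam1 was closest to Serpinb9 (0.947), Ifngr2 (0.941) and Serpinb6b (0.938), and Cd44 to C1s1 (0.968), Birc3 (0.966) and Sp100 (0.960). Krt8 was nearest to the epithelial factor Elf3 (0.996), Hoxb9 (0.988) and Mal (0.986), and Krt18 to Sprr1a (0.973), Krt7 (0.959) and Cldn4 (0.955). Krt19 was nearest to Upk3a (0.989), Krt5 (0.983) and Psca (0.966), all on the urothelium list. Among the members, the closest pairs were Spp1 with Krt8 (0.969), Krt18 with Krt19 (0.945) and Lcn2 with Timp1 (0.931), and the least alike were Cd44 and Krt8 (-0.62).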

How the data were processed

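The authors isolated RNA with TRIzol (miRNeasy for lymph nodes of antibody-positive mice), ran poly(A) libraries on the Ion Torrent PGM, and used CLC Genomics Workbench to map them to GRCm38 and count gene reads. The labels also name BWA, HTSeq and mm9; the methods describe BWA and HTSeq for the whole kidneys. The deposited table holds a normalized signal per gene and library. Multiplied by the size factor, 100% of values were whole numbers of at least 1 (tolerance 0.001), and the size factors of these whole numbers, recomputed by the median of ratios over the 14 libraries, equalled the factors used, so the authors' signal is (reads + 1)/size factor. The reads were recovered by subtracting 1.

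Differential expression (DE) was tested with limma 3.58.1 (trend and robust) in R on log2(value + 1) for genes whose mean value reached 5, with Benjamini-Hochberg adjusted p under 0.05 as the threshold. The study's text counts 3 samples per tissue, and all 4 labelled kidneys were kept. Fold changes on this scale understate those of low genes. Replicates are animals. Alternatives were edgeR 4.0.16 and DESeq2 1.42.0 on the reads, other filters, pseudocounts, sample choices, a log2 fold change of at least 1, each library left out, and the mouse as a replicate block. The paired samples come from one animal, and deviations from the tissue means correlated between kidney and TLS of one mouse (0.351, 0.364 and 0.454 across genes) and had a median of -0.24 (up to 0.361) between different mice, while over all tissue pairs of one mouse the range was -0.34 to 0.454. The limma step was tested on simulated data.

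The members and gene lists were chosen with earlier results of these data known. All 10 members are named, partner genes freely, injury response genes as the 3 DE genes with the largest change in each direction, and the 3 genes most like each member by Pearson's r. Marker lists are given as counts and sums with their 2 most abundant genes. Exceptions are stated. The labelled young library was only described. Shares of reads have 95% intervals that cover counting error only. Exons and positions are from GENCODE M21, promoters from RefSeq.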

Additional observations from a re-analysis of the deposited data

How the results depend on the processing

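In kidney versus TLS, 1 member was called in the main test and under every planned setting except when a library was left out, which gave 1 to 2. Lymph node versus TLS gave 4 members, 4 whichever library was left out, and 4 to 6 under the other settings. Kidney versus lymph node gave 5, between 3 and 6 with a library left out (3 without lymph node H20 or H117), and 8 with all 7 lymph nodes as one group. Antibody-positive versus proteinuric lymph node gave 0 under each setting. The paired fit with the replicate block gave 1, 5 and 7 members in the first 3 comparisons, and changed no call beside those of Lcn2 and Timp1 given above.

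The differences that turned sign were not called in any of these fits. Vcam1 in kidney versus TLS was 0.0091 under DESeq2, and 0.086 and 0.012 under edgeR with DESeq2 size factors and with TMM. In kidney versus lymph node it was 0.10, 0.19 and 0.29 under these tests. In lymph node versus TLS it was 0.28 with all 7 lymph nodes and between -0.23 and 0.32 with a library left out. Clu in lymph node versus TLS was -0.088 under edgeR with TMM and between -0.054 and 0.47 with a library left out, and in kidney versus TLS between -0.98 and 0.015. In kidney versus TLS, Spp1 ran from -0.31 to 1.42 and Timp1 from -0.89 to 1.08 with a library left out. In antibody-positive versus proteinuric lymph node, Cd44 ran from -0.13 to 0.31 and Havcr1 from -0.18 to 0.0067. Of the other values of single members, 22 became significant and 10 lost significance under some setting, while 614 kept both direction and side of the threshold. The cause was not tested.

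The genes called among all tested ranged from 530 to 1344 around 1084 in kidney versus TLS, from 315 to 1280 around 780 in lymph node versus TLS and from 1284 to 4283 around 3230 in kidney versus lymph node. The lower figures came without TLS H6 in the first case and with fewer genes tested, at a mean value of at least 20, in the others. Depth limits Cd44, Timp1 and Krt19, which had fewer than 10 reads in several libraries.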
